A study of Mus musculus with 2 samples.

Results

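The mitosis genes described here are 36 genes whose products carry a cell through division, from entry into mitosis to cytokinesis. They were chosen by name, and every array probe that the scanner files assign to one of these gene names was taken, which gave 67 probes for all 36 genes, out of 16539 named genes with a measurable probe. The cells were NIH3T3, an established line of mouse embryo fibroblasts, and 2 single-colour Agilent arrays, 1 per group, profiled gene expression in cells labelled as overexpressing MARVELD1 and in control cells. Per the labels, both groups carried the plasmid pcDNA3.1, empty in the control and with MARVELD1 in the other, and stable lines were selected with the drug G418. Whether a line was 1 clone or a pool is not given in the sources used here. In bulk RNA, a changed share of cells in mitosis and a changed amount of RNA per mitotic cell cannot be told apart.

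As background, entry into mitosis is driven by cyclin-dependent kinase 1 bound to A-type and B-type cyclins, and exit by the anaphase-promoting complex, a ubiquitin ligase that marks cyclins and securin for destruction. The spindle assembly checkpoint holds that ligase back until the chromosomes are attached to spindle microtubules. Transcripts of many of these genes peak in G2 and M phase, and the cell cycle homology region, a TTTGAA element near the start site that often lies beside a CCAAT box, is a known element of such promoters. Together they are widely read as a sign of dividing cells in a culture.

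These promoter elements were shared by most of the members for which a sequence was at hand. RefSeq promoter windows of GRCm38.p6, from 250 bases before to 50 bases after the start site, were found for 29 of the 36 genes by symbol. On either strand, TTTGAA occurred in a window of 19 of the 29 genes (65.5%), against 20.2% of 27025 genes with a window. CCAAT occurred for 23 of them (79.3%) against 41.1%, and both elements for 18 (62.1%) against 7.97%. The elements as searched can share at most 1 base with each other, and a match describes the letters of this window and not a bound site. The last 150 bases before the start site are shown for 4 members, because they hold both elements close to the start site but lie on different sides of 0 in the comparison of the arrays, with each TTTGAA and CCAAT match in capitals (TTCAAA and ATTGG on the reverse strand).
Cdc20 (chr4:118437344-118437493, minus strand): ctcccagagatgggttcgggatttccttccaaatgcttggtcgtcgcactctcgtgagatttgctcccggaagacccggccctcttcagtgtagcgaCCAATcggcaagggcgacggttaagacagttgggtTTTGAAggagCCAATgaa
Ube2c (chr2:164769779-164769928, plus strand): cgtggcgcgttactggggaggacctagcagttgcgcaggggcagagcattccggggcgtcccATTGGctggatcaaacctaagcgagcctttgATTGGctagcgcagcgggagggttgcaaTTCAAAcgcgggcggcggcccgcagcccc
Kif11 (chr19:37376232-37376381, plus strand): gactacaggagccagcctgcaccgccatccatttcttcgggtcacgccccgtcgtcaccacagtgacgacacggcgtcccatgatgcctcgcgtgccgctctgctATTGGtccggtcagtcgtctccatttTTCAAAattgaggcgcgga
Top2a (chr11:99024190-99024339, minus strand): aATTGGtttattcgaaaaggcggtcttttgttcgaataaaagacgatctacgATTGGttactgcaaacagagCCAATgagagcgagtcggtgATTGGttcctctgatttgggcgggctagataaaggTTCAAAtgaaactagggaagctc
The log2 differences between the arrays, defined below, were 0.10 for Cdc20, 0.31 for Ube2c, -0.54 for Kif11 and -0.64 for Top2a. The signs of Cdc20 and Ube2c depended on the processing, and those of Kif11 and Top2a did not in any setting tried. Over the 19 members with TTTGAA the median log2 difference was 0.31, with a range of -0.72 to 0.80. It was 0.10 over the 10 with a window but without it, with a range of -0.01 to 1.12, so the 2 ranges overlapped. Neither median takes in the members that had no window. These were Ccna2 (0.98), Incenp (0.70), Tpx2 (0.61), Kif20a (0.50), Smc4 (0.50), Aurkb (0.28) and Cdc25c (-0.18). Whether the element and the differences go together was not tested.

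A probe is a strand of 60 bases, and each member probe was a single spot on each array. The sequences below are those of probes on which the account of single genes turns, because they gave the largest differences or because they can be set beside another probe of the same gene. The build is mm9 throughout for probes. Capitals in the Kif4 probe mark the 20 bases with which a second Kif4 probe begins, and the other probes carry no capitals.
Bub1, A_51_P123405 (chr2:127626988-127627047, minus strand): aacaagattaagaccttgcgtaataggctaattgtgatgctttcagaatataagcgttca
Racgap1, A_52_P298465 (chr15:99464720-99466615, minus strand, spanning 1896 bases of the genome): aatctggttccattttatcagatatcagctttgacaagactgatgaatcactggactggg
Anln, A_51_P313896 (chr9:22177635-22177694, minus strand): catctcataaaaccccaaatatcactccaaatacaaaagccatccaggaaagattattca
Anln, A_52_P512955 (chr9:22138566-22142382, minus strand, spanning 3817 bases of the genome): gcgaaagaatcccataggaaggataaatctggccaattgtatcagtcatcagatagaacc
Smc2, A_52_P243388 (chr4:52491301-52491360, plus strand): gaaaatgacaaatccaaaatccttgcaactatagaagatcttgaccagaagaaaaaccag
Kif4, A_51_P254805 (chrX:97922085-97922145, plus strand): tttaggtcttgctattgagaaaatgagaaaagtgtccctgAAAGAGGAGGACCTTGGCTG

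Both arrays carried the same design and the same scan time, with 68.7% and 69.0% of spots well above background, the scanner program's own call of a measurable spot. The targeted gene, Marveld1, went against its label: in the order empty vector, MARVELD1, its brighter probe read 8725 and 6293 (log2 difference -0.34), and its dimmer probe 184.4 and 126.4 (-0.42). Whether these probes read the plasmid's insert is not known, so every direction below rests on the label. Of the 10 fibroblast markers, all 10 were well above background on both arrays, with summed intensities of 726544 and 569228. By their brightest probes 3 were lower past 2-fold, namely Col3a1 (-1.56), Pdgfrb (-2.10) and Fn1 (-1.12), beside 3.52% of all genes. Past 2-fold higher lay 0, beside 5.41%. Which markers passed depended on the probe. Another Col3a1 probe gave -0.10 and another Fn1 probe -2.47, and dimmer probes of Col1a1 (-1.60) and Thy1 (-1.61) were lower past 2-fold. Of the 5 epithelial markers 1 and 2 were well above background, with Cdh1 and Epcam on neither array, and their sums were 262.4 and 332.2. All 4 macrophage markers were well above background on both arrays, from 41.1 (Ptprc) to 670.5 (Csf1r) with the empty vector and from 52.2 to 502.1 with MARVELD1. Of the 4 endothelial markers 3 and 4 were well above background, and of the 4 muscle markers 3 and 3. The 4 endothelial markers summed to 1750.0 and 1224.3, the 4 macrophage markers to 1079.6 and 1019.1, and the 4 muscle markers to 1010.3 and 1290.8. The part of these markers in the results on mitosis genes was not tested.

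Differences between the arrays stayed within 2-fold for nearly all mitosis genes, as for most genes on the array. A log2 difference is that of the array labelled MARVELD1 minus the empty vector array, after each array was scaled to its 75th percentile, and a gene is represented by its brightest probe. For all 36 genes this probe was measurable on both arrays. With 1 array per group no test between groups is possible, and 2-fold serves only as a limit of size. Past it lay 1 member on the higher side, Bub1, and 0 on the lower side. Among all 16539 genes, 894 (5.41%) passed this limit on the higher side and 582 (3.52%) on the lower side. These all-gene counts depend on the scaling: 60.6% of the genes past 2-fold were higher here, 47.6% with scaling to the array median, 48.4% with quantile normalization, 43.9% after loess, 41.8% with normexp background correction and 43.8% in the values of the authors' deposited table.

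At a limit of 1.5-fold, 9 members were higher and 2 were lower. The share of all genes past this limit was 19.4% on the higher side and 8.94% on the lower side. The median log2 difference of the 36 genes was 0.30, with quartiles of 0.07 and 0.57 and a range of -0.72 to 1.12, and that of all genes was 0.18, with quartiles of -0.13 and 0.48. Relative to the median of all genes the members stood 0.12 higher, and 21 of the 36 lay above it and 15 below. In this scaling 29 members (80.6%) were above 0 and 7 below, where 65.9% of all genes measurable on both arrays were above 0. Only 24 members were above 0 with scaling to the array median and 19 after loess. Over the main setting and 9 alternatives, 18 members were above 0 wherever they had a value, 7 were below 0 wherever they had one, and the sign of the other 11 depended on the setting. A value could be had in all 10 settings for every member except Nusap1, which had 9. The settings are not independent checks. The filters could move no member, and the choice of probe could not move a member with a single measurable probe. Some scalings shift all genes together, and relative to the median of all genes in each setting 17 members were above it throughout, 11 were below it throughout and 8 depended on the setting, Bub1 among them. Cdc20, Birc5, Nek2 and Racgap1 were below that median throughout.

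**Figure D1:**
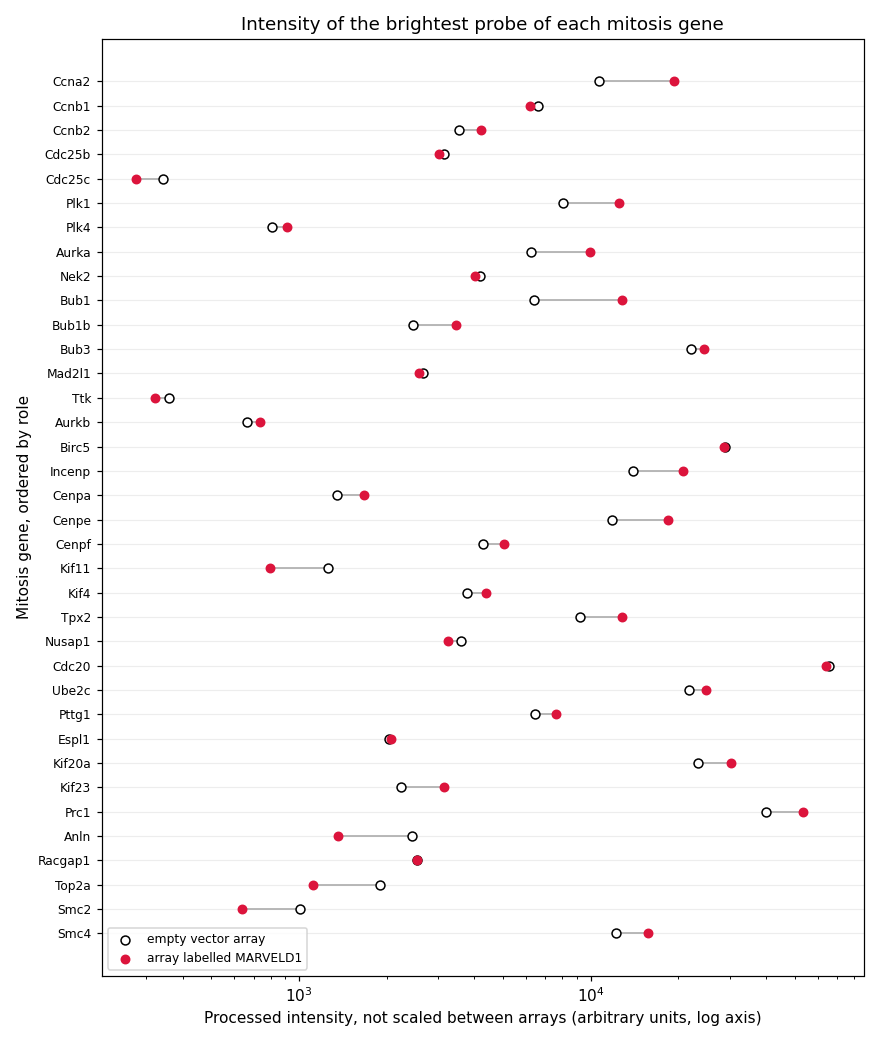
Processed intensity of the brightest probe of each of the 36 mitosis genes on a log axis, before scaling between arrays, with the empty vector array as open circles and the array labelled MARVELD1 as filled circles. The circles of a gene lie close together for most genes, with the widest gaps for Bub1 (6409 and 12782) and Ccna2 (10705 and 19279) on the higher side and for Anln (2443 and 1358) on the lower side.

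Technical spread was gauged in several ways, none of which covers the spread between cultures. Probes printed repeatedly and reading 500 or more had an SD between spots of 0.18 (empty vector) and 0.12 (MARVELD1), so that a difference between single spots had an SD of 0.22 on the log2 scale (97 probes). For repeated probes under 500 it was 0.53 (78 probes). The scanner program assigned the brightest probe of each member an error between 10.0% and 10.5% of its intensity. Over these brightest probes the median error of a log2 difference was 0.20. It follows from this near-constant value and not from repeated spots. Dim probes had larger errors. Different probes of a gene had an SD of 0.53 over 5489 genes, which is larger than the difference of most mitosis genes.

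Among the cyclins and Cdc25 phosphatases, which switch on cyclin-dependent kinase 1, Ccna2 had the largest log2 difference. Ccna2, encoding cyclin A2 of S and G2 phase, read 10705 with the empty vector and 19279 with MARVELD1, the order kept for every pair of intensities here, and its log2 difference of 0.98 lies just inside 2-fold (1.97-fold higher). It was read by a single probe, so only the scaling could move its value, which was at least 0.67 in all 10 settings. Ccnb2 (cyclin B2) read 3546 and 4213, a log2 difference of 0.38. The main mitotic cyclin gene, Ccnb1, had 3 measurable probes that disagreed in sign. They gave log2 differences of 0.04, -0.19 and 0.23, and the brightest read 6592 and 6201. Cdc25b, a phosphatase gene of mitotic entry, read 3156 and 3027 by its brightest probe (0.07), with 0.26 by another and, by a dim probe measurable on the empty vector array only, a bound of -0.85. Cdc25c, its relative that acts on the cyclin B complex, read 342.5 and 277.6, a log2 difference of -0.18, and its other probe gave -0.09. By their brightest probes, the cyclin A gene and the B-type cyclin genes Ccnb2 and Ccnb1 thus gave 0.98, 0.38 and 0.04. Whether these genes differ from each other was not tested.

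Of the mitotic kinase genes, Plk1 and Aurka had larger log2 differences than Nek2 and Plk4. Plk1, encoding the polo-like kinase of mitotic entry and spindle assembly, read 8058 and 12471, a log2 difference of 0.76. Aurka, the aurora kinase gene of centrosomes and spindle poles, read 6235 and 9951, a log2 difference of 0.80. Both rested on 1 probe, and their lowest values over the settings were 0.47 and 0.53. Nek2, a kinase gene of centrosome separation, read 4163 and 4024 (0.08). Plk4, whose product starts centriole duplication, read 810.8 and 909.1 by its brightest probe (0.29), whereas a dimmer probe 6923 bases closer to the 5-prime end read 110.7 and 73.5 (-0.46).

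Bub1 had the largest difference of all members, and its probes did not give it alike. It encodes a kinase that gathers checkpoint proteins at kinetochores. The brighter probe shown above read 6409 and 12782, which is 1.12 on the log2 scale (2.18-fold higher). The other probe, A_52_P259126, lies 662 bases closer to the 3-prime end and read 2155 and 2119.8, a log2 difference of 0.10. The call past 2-fold thus rests on 1 probe and was absent with the most 3-prime probe (0.10), with the mean of all probes (0.61), with quantile normalization, after loess and with normexp. Of the other checkpoint genes, Bub1b, which encodes the BubR1 inhibitor of the anaphase-promoting complex, read 2462 and 3451 (0.61). Bub3, the partner of Bub1 and BubR1, read 22077 and 24454 (0.27), with 0.58 by another probe and a bound of -0.43 by a dim one. Mad2l1, encoding the Mad2 inhibitor, gave 0.07 and -0.06 by its probes, and Ttk, the Mps1 kinase gene at the head of the checkpoint, read 359.5 and 321.6 (-0.03). The 5 checkpoint genes therefore ranged from -0.03 to 1.12, with a median of 0.27.

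**Figure D2:**
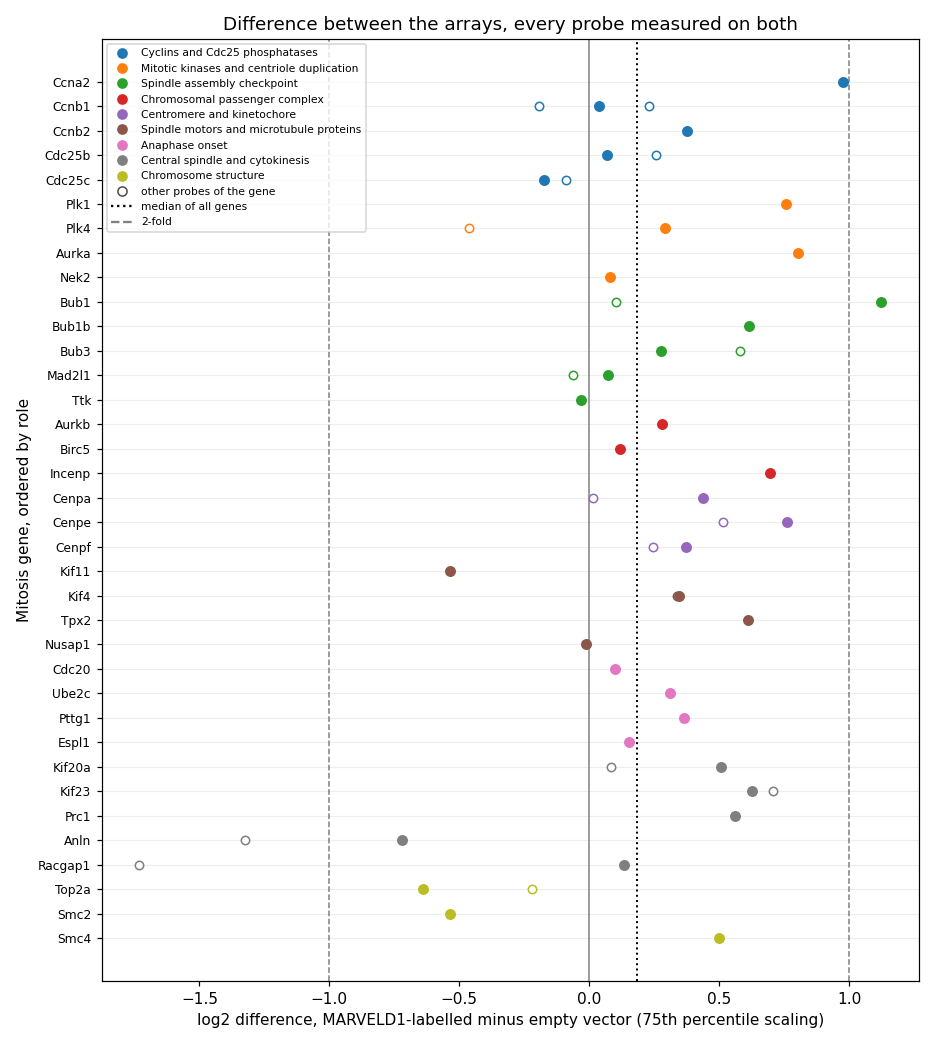
Log2 difference (array labelled MARVELD1 minus empty vector) for every probe measurable on both arrays, with genes ordered and coloured by role, the brightest probe of a gene filled and other probes open. Dashed lines mark 2-fold and the dotted line the median of all genes (0.18), and only Bub1, Anln and Racgap1 have a probe beyond a dashed line.

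Chromosomal passenger and kinetochore genes lay between 0.12 and 0.76 in the main setting, in which 65.9% of all genes were above 0. The passenger complex joins the aurora B kinase to its scaffold INCENP and to survivin, and corrects wrong attachments of microtubules. Incenp read 14009 and 20770.3, a log2 difference of 0.70. Aurkb read 661.8 and 735.3 (0.28), and Birc5, the survivin gene, read 28822 and 28656 (0.12, but as low as -0.21 in another setting). In the main setting the scaffold gene thus differed more than the kinase gene it serves, each read by a single probe. Incenp and Aurkb lay closer together with quantile normalization (0.41 and 0.29) and with normexp (0.37 and 0.25). Whether these genes differ from each other was not tested. Cenpe, a kinesin gene of the outer kinetochore, read 11847 and 18373 (0.76), and its second probe gave 0.51. Cenpf, another large kinetochore protein gene, read 4263 and 5044 (0.37). Cenpa, the gene of the histone H3 variant that marks centromeres, read 1351 and 1673 (0.44), with a dimmer probe at 0.01.

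Spindle and anaphase genes showed differences of either sign. Kif11, the kinesin gene whose motor pushes spindle poles apart, read 1262 and 797.4, a log2 difference of -0.54. It was below 0 in all 10 settings, although its other probes were measurable on neither array, so only the scaling could move it. Tpx2, encoding the activator of aurora A on spindle microtubules, read 9199 and 12848 (0.61), beside 0.80 for Aurka. Kif4, a chromosome-bound kinesin gene, read 3769 and 4387 by its brighter probe. That probe shares 20 bases with the one shown above, which read only 1303 and 1508, yet their log2 differences were 0.35 and 0.34. Nusap1, a microtubule-bundling protein gene, read 3582 and 3252 (-0.01), with a bound of -0.43 by a dim probe. The genes of anaphase onset stayed near the median of all genes: Cdc20 (0.10), the activator of the anaphase-promoting complex, Ube2c (0.31), its ubiquitin-conjugating enzyme, Pttg1 (0.36), or securin, and Espl1 (0.15), the separase that cuts cohesin. Cdc20 read 65542 and 64317, Ube2c 21815 and 24768, Pttg1 6469.7 and 7615, and Espl1 2035 and 2072.

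Cytokinesis genes held the most divided readings. Prc1, which bundles the microtubules of the central spindle, read 39765 and 53639 (0.56). Kif23, the kinesin of the centralspindlin complex, read 2232 and 3149 (0.62), with 0.70 by its second probe. Kif20a, a kinesin gene needed for the central spindle, read 23276 and 30245 (0.50) by its brightest probe and gave 0.08 by a probe that overlaps it by 33 bases. Racgap1, the partner of Kif23 in centralspindlin, read 2535 and 2544 by its brightest probe (0.13). The Racgap1 probe shown above, 13203 bases closer to the 5-prime end in the genome, read 445.9 and 122.8, which is -1.73 on the log2 scale (3.32-fold lower). Anln, encoding the anillin scaffold of the contractile ring, was lower by both of its probes. They read 2443 and 1358 (-0.72) and, closer to the 5-prime end, 157.6 and 57.6 (-1.33). Even by its brightest probe Racgap1 was below 0 with quantile normalization (-0.01) and after loess (-0.05), where Kif23 gave 0.49 and 0.44.

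Genes of chromosome structure included 2 of the 4 lowest members. Top2a, encoding the topoisomerase that untangles sister chromatids, read 1901 and 1118 (-0.64), and a dim probe read 61.1 and 48.0 (-0.22). Smc2, a condensin core subunit gene, read 1011 and 638.9 (-0.53). The Smc2 probe shown above read 70.9 and, on the array labelled MARVELD1, 14.8, which is not well above background, so only a bound of at least 1.81-fold lower can be given. Another dim probe gave at least 1.67-fold lower. Smc4, whose product pairs with Smc2 in condensin, read 12190.4 and 15757 (0.50), and its other probe was measurable on neither array. The condensin partners therefore differed in opposite directions by their brightest probes, and each kept its sign in all 10 settings. That opposition was not tested.

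Probe position went along with several of these readings. Of the 67 probes 53 were measurable on both arrays, 5 on the empty vector array only, 0 on the other only and 9 on neither. Of all 41084 probes with usable spots on both arrays, 1329 were measurable on the empty vector array only and 1407 on the other only. Among the 53 probes, 1 was at least 2-fold higher (Bub1) and 2 were at least 2-fold lower (Anln and Racgap1), where 4.61% and 3.89% of 26799 such probes on the array were. In 12 members with measurable probes at least 500 bases apart, the most 5-prime probe gave a lower log2 difference than the most 3-prime probe in 9, with a median of -0.22 for the 5-prime minus the 3-prime value. All 4607 genes that could be compared in this way had a median of -0.28, and 67.7% of them were below 0, so the members' values were close to those of the array as a whole. Bub1 (1.02), Top2a (0.42) and Cenpf (0.13) went the other way. The part of probe position in the differences was not tested.

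**Figure D3:**
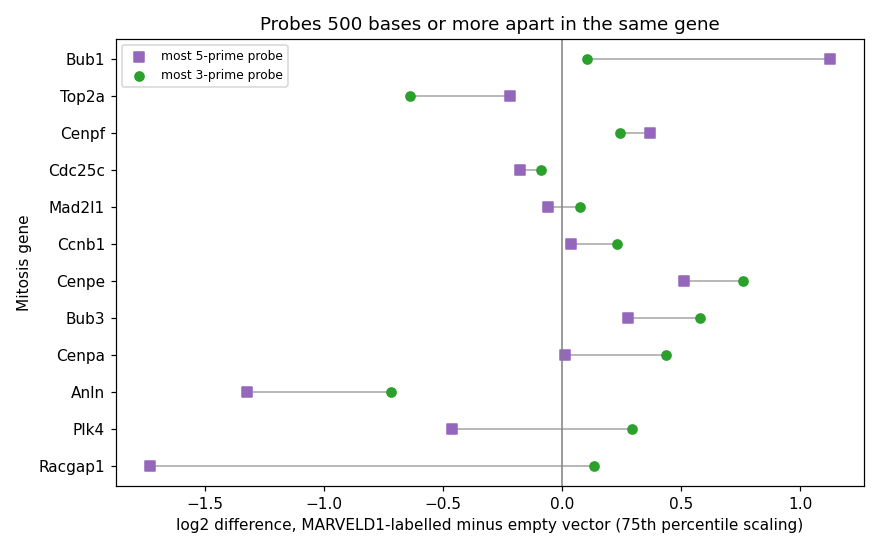
Log2 differences of the most 5-prime (square) and the most 3-prime (circle) measurable probe in 12 mitosis genes whose probes lie 500 bases or more apart in mm9. In 9 genes the square lies left of the circle, furthest in Racgap1 (-1.73 and 0.13), and in Bub1 it lies furthest to the right (1.12 and 0.10).

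Other genes of mitosis, from a list of 138 that excludes the members, were read beside the members. Of these, 135 had a measurable probe, with 1 past 2-fold on the higher side, beside 5.41% of all genes, and 5 on the lower side, beside 3.52%, and their median log2 difference was 0.23 beside 0.18 for all genes. Cdk1, the catalytic partner of the mitotic cyclins, read 5629 and 4585 (-0.17), and Mki67, the proliferation marker Ki-67, read 18361 and 25402 (0.60) by its brightest probe and 3682 and 4128 (0.29) by another. Stag1, a cohesin subunit gene, was 2.04-fold higher by its brightest probe, with 0.72 and 0.24 by others. On the lower side, the spindle kinesin gene Kif15 read 421.3 and 14.1, the latter not well above background, which gives a bound of at least 10.7-fold lower. Its other probes were measurable on neither array. Knl1, a kinetochore scaffold gene, was at least 2.68-fold lower by the same kind of bound, and its other probe too was measurable on the empty vector array only. Cenpb, encoding the centromere DNA-binding protein, read 1516 and 319.1 (4.35-fold lower), Cenpm 1057 and 331.4 (2.92-fold lower) and Hmmr, a spindle protein gene, 304.8 and 136.1 (2.05-fold lower). For Cenpb, Cenpm and Hmmr no other probe was measurable on both arrays, so log2 differences could not be compared between probes.

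DNA replication genes act in the preceding S phase. Of 50 listed genes 49 were measurable, with a median log2 difference of 0.24, beside 0.30 for the mitosis genes and 0.18 for all genes. Past 2-fold lay 1 on the higher side, beside 5.41% of all genes, and 1 on the lower side, beside 3.52%. Orc2, an origin recognition subunit gene, read 1506 and 3895 (2.83-fold higher), and Ccne2, encoding cyclin E2, read 568.8 and 203.6 (-1.36), with -1.41 by its other probe. Ccne1, for cyclin E1, gave 0.91 and 0.47. Whether the lists differ from each other was not tested.

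**Figure D4:**
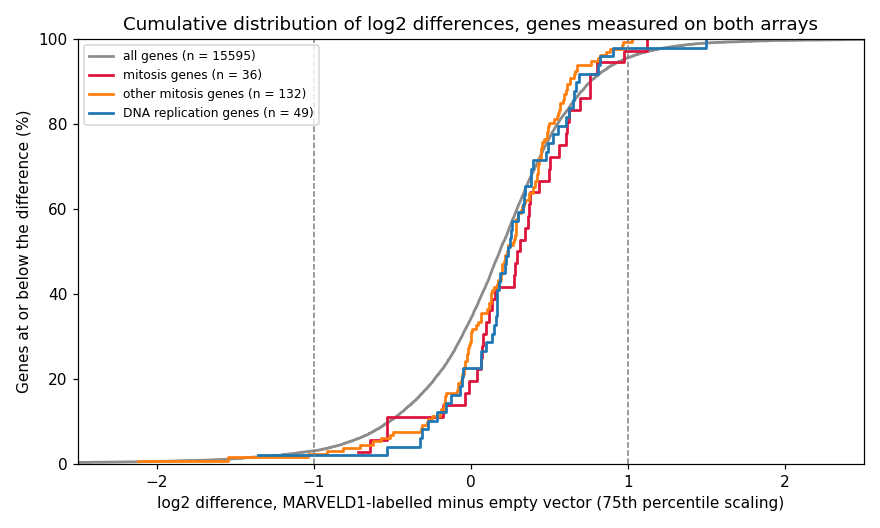
Cumulative share of genes (vertical axis, %) at or below each log2 difference (horizontal axis) for all 15595 genes measurable on both arrays, the 36 mitosis genes, 132 other mitosis genes and 49 DNA replication genes. The curves cross 50% at 0.18, 0.30, 0.23 and 0.24, and dashed lines mark 2-fold.

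**Figure D5:**
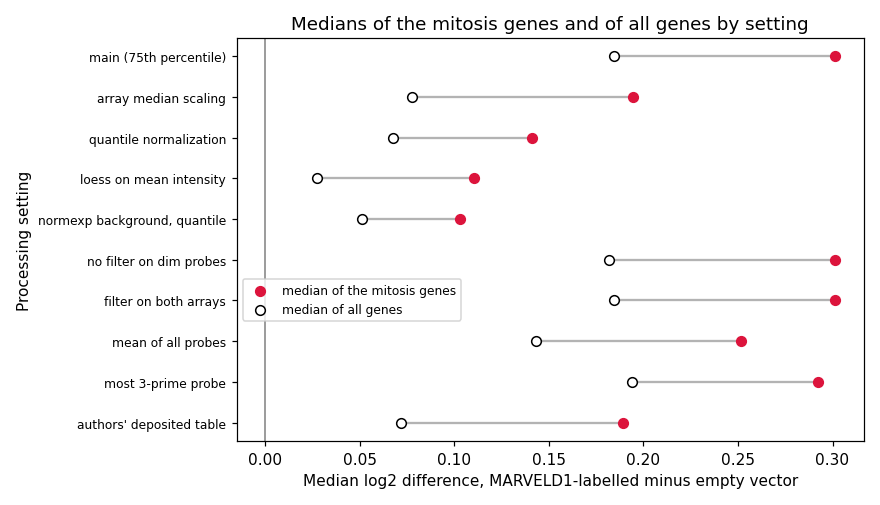
Median log2 difference of the 36 mitosis genes (filled) and of all genes (open) under the main setting and 9 alternatives. The filled point lies between 0.05 and 0.12 to the right of the open one in each setting, while both move together with the scaling, from 0.30 to 0.10 for the mitosis genes.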

How the data were processed

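Single-colour Cy3 arrays of NIH3T3 cells with empty pcDNA3.1 or pcDNA3.1-MARVELD1 were used, 1 per group, grouped by the labels. The deposited intensity of each spot was read by Agilent Feature Extraction 9.5.3.1, background-subtracted and detrended within the array, per the file headers. The authors also deposited a table of 26851 probes with normalized intensity, each column being the processed intensity divided by 1 factor per array. Its method is not given in the sources used here. From the processed intensity, log2 values minus the 75th percentile of each array were taken without outlier spots, and spots of a probe were averaged. A gene was its brightest probe, kept if well above background on at least 1 array. Where a probe was measurable on 1 array only, a bound against the lowest measurable value was given. Members were matched by the files' gene names, and other genes through RefSeq tables of GRCm38.p6 (24959 probes by accession, 5945 by symbol, 1765 by an older name). Alternatives used limma 3.58.1 (quantile normalization, normexp with offset 50, loess span 0.3). The differences and calls were tested on simulated data with planted changes well past 2-fold, in probes measurable on both arrays. Calls near 2-fold and bounds were therefore not covered. The simulated noise was also less than that between spots of repeated probes reading under 500. Members, lists and alternatives were chosen with earlier results of these data known. Genes were named by a rule: all 36 members, any gene of the other lists past 2-fold and the highest and lowest there. Cdk1, Mki67 and Ccne1 were chosen after their values were seen. The number of arrays limits the precision.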

Additional observations from a re-analysis of the deposited data

How the results depend on the processing

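No paired analysis was possible because each group has 1 array, and no array could be left out. The other 2 filters could not move any of the 36 single differences, because the brightest probe of each member was measurable on both arrays. They are therefore no check on the members. With the authors' deposited table and with each of the 4 other scalings (array median, quantile, loess, normexp), all moved by less than 0.39. That is the SD of a difference between all repeated single spots. Against 0.22, the SD for probes reading 500 or more, 20 members moved by more after loess (at most 0.36), 16 with quantile and 14 with normexp, and 0 with the array median or the authors' deposited table. With the mean of all probes 3 moved by more than 0.39, Bub1 (0.61), Racgap1 (-0.80) and Smc2 (-1.69), and with the most 3-prime probe Bub1 (0.10), where Nusap1 had no value. The members' median was 0.19 when scaled on array medians, 0.14 after quantile normalization, 0.11 by loess, 0.10 by normexp and 0.19 in the authors' deposited table. Relative to all genes it lay between 0.05 (normexp) and 0.12. The count of members at least 2-fold higher was 0 after loess or normexp, with quantile normalization, and with the mean of all probes or the most 3-prime probe. With the mean of all probes 2 members were lower, Anln (-1.02) and Smc2 (-1.69), beside 626 of all 16545 genes. At 1.5-fold 9 members were higher and 2 lower, and at 3-fold 0 were higher. Of all genes 298 were at least 2-fold higher with normexp and 479 in the authors' deposited table. At 1.5-fold 3213 were higher and 1479 lower, and at 3-fold 199 and 215. The causes of these shifts were not tested. The mean for Smc2 takes in probes that were not well above background with MARVELD1, and such probes allow bounds only.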

Other observations

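Overlapping probes show how far 2 readings of partly shared stretches of a transcript can differ on these arrays. In 183 genes a pair of probes measurable on both arrays overlapped by 15 bases or more. Their levels differed by a median of 0.41 on the log2 scale, with a 90th percentile of 1.68. The log2 differences between the arrays lay closer together, with a median absolute gap of 0.12 and a 90th percentile of 0.49, and 7 of the 183 pairs were 2-fold or more apart. Of the mitosis genes, Kif4 had a gap of 0.01 at levels 1.54 apart, and Kif20a a gap of 0.42 at levels 0.27 apart. These values were looked at after the results on single mitosis genes had been seen.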
